A study of Mus musculus with 18 samples.

Results

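Untreated primary cultures of mouse cortical cells were compared with untreated mouse cortex, using 3 arrays a side of the 18 arrays in the series. The arrays were assigned to the groups by their sample titles. The culture samples were dishes of dissociated C57BL/6J cortical cells, taken from newborn pups or from embryos of E16 to E18. The cells were grown in neurobasal medium with B-27 supplement (2%) and were harvested 3 h after water had been added as a sham treatment. The study used 9 dishes from 3 different cultures, and 3 of these dishes form the untreated group. Cortex was taken from 9 male C57BL/6J mice left undisturbed in their home cages, with RNA of 3 mice pooled for each array. The labels do not give the age of the mice, the sex of the cultured cells or the number of days in culture. All animals were of the same strain, and no group carried a transgene or a mutation in the labels. RNA was isolated with one kit from cortex and with another from cultures, so tissue, developmental age, medium and kit cannot be told apart in this comparison. The p-values measure the spread between pools and between dishes.

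Primary cortical cultures are made by dissociating the cortex of a late embryo or newborn and plating the cells on a coated dish. At that age cortical neurons have been born or are still being born, most astrocytes have yet to be made, and oligodendrocytes have not formed myelin. Blood flow, meninges and incoming axons are lost on dissociation, and serum-free neurobasal medium with B-27 was designed to favour neurons over dividing glia. Whole-tissue RNA from such a culture and from the cortex therefore differs in the cells it comes from as well as in what each cell expresses. In bulk RNA, fewer cells of a type and less RNA per cell cannot be told apart.

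The deposited values are log2 signals made with RMA, a method that subtracts background, equalises arrays and combines several probes into 1 value. The spread of the values differed between the systems. Across probe sets the standard deviation was 2.30 to 2.31 on the 3 cortex arrays and 2.78 to 2.80 on the 3 culture arrays, while the medians were close, at 6.90 to 6.92 and 6.94 to 6.98. The deposited difference of culture minus cortex also depended on the signal level. When the 14807 genes were cut into 10 bins by their mean signal, the median difference in deposited values ran from -0.06 in the lowest bin to 0.97 in the bin next to the highest. After quantile normalization of all 18 arrays the same medians ran between 0.05 and 0.43. Over all genes the median difference was 0.50 as deposited and 0.23 after quantile normalization. A gene is therefore called higher or lower in culture only where both versions of the data gave an adjusted p under 0.05 and a difference of at least 2-fold in the same direction.

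**Figure D1:**
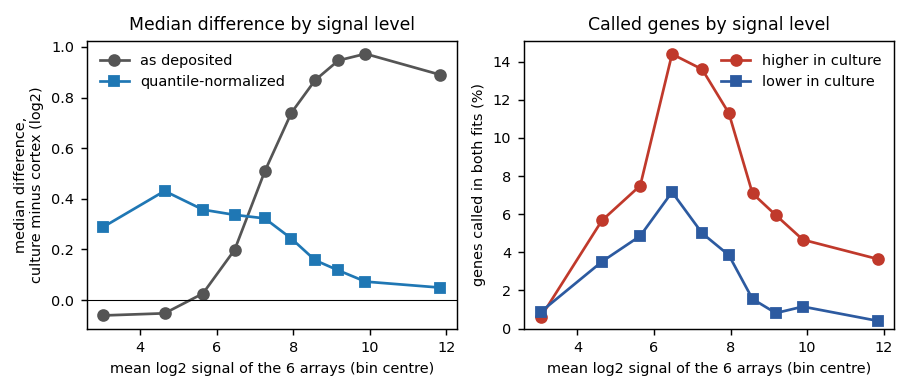
Median difference of culture minus cortex on the log2 scale (left) and percent of genes called in both versions of the data (right), each by bin of mean log2 signal of the 6 arrays (10 bins of 1480 or 1481 genes, placed at the centre of the bin). The deposited values rise from -0.06 to 0.97 with signal level, whereas the quantile-normalized values stay between 0.05 and 0.43. The share of genes called is highest in the 4th bin, where 14.4% were called higher and 7.16% lower.

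By this rule 1101 of 14807 genes were higher in culture (7.44%) and 432 were lower (2.92%). In the deposited values alone, 2-fold calls numbered 3799 higher (25.7%) and 562 lower (3.8%), and in the quantile-normalized values alone 1381 higher (9.33%) and 745 lower (5.03%). With no threshold on the size of the difference, 76.2% of genes passed an adjusted p of 0.05 in the deposited values and 70.6% in the quantile-normalized values, and 1211 genes passed in both with opposite signs. No gene had 2-fold calls of opposite sign in the 2 versions. The larger differences leaned less to one side: 181 genes were at least 4-fold higher and 134 at least 4-fold lower in both versions, and 33 and 54 genes were at least 8-fold higher and lower. Pearson correlations across probe sets were 0.989 to 0.993 between arrays of 1 group and 0.924 to 0.935 between a culture array and a cortex array. Adjusted p-values throughout are from limma with Benjamini-Hochberg adjustment over all 14807 genes, and errors after ± are standard errors of the fit, with n = 3 arrays a group.

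The 717 olfactory receptor genes, which are mostly silent in brain, served as a reference for signal without expression. Their 95th percentile was 5.89 in culture and 6.03 in cortex as deposited, and 6.02 and 5.89 after quantile normalization. Of these receptors 12 were called higher and 7 lower. After quantile normalization 10680 of all 14807 genes had a mean above the reference in culture and 10306 in cortex. Counts of genes above the reference are of quantile-normalized means throughout. For 386 of the genes called higher in culture, the cortex mean lay at or under this reference, and for 237 of the genes called lower, the culture mean did. The fold change of such a gene depends on the array's background.

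**Figure D2:**
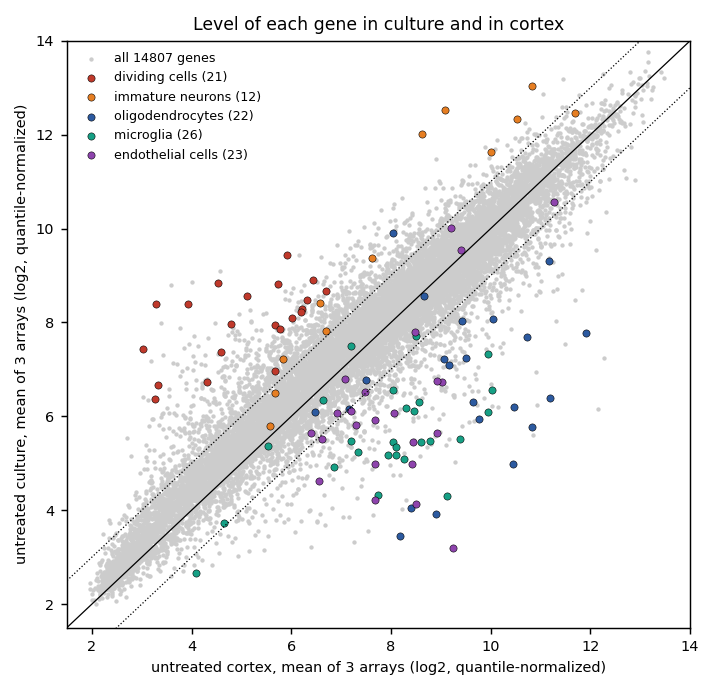
Mean log2 signal of each gene in the 3 untreated cortex arrays (horizontal) and the 3 untreated culture arrays (vertical) after quantile normalization, with the solid line at equality and the dotted lines at 2-fold. The 21 dividing-cell genes lie above the upper dotted line, and most oligodendrocyte, microglial and endothelial markers lie under the lower one.

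Of the 53 gene lists, that of dividing cells had the highest median difference in favour of culture, in both versions of the data. All 21 measured genes of the dividing-cell list were called higher, against 7.44% of all genes, with a median difference of 2.81 on the log2 scale as deposited and 2.79 after quantile normalization. In cortex, 7 of the 21 had a mean above the olfactory reference, and in culture all 21 did. For all 14807 genes these counts were 10306 and 10680. Top2a, the topoisomerase that untangles chromosomes before mitosis, read 8.41, 8.96 and 8.85 on the culture arrays and 3.46, 3.46 and 3.56 on the cortex arrays. The groups were far apart, and the cortex readings were below the reference. The difference was 5.25 ± 0.15 as deposited (adjusted p = 5.6e-13) and 5.12 ± 0.12 after quantile normalization (adjusted p = 3.6e-14). Cdk1, the kinase that drives entry into mitosis, read 8.75, 9.35 and 9.57 in culture and 4.76, 4.69 and 4.86 in cortex. Culture array 1 was the lowest of the culture arrays for both genes.

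Among the genes nearest to Cdk1 in size of difference were Pclaf, a clamp-binding factor of DNA replication, Prc1 and Nusap1, which bundle spindle microtubules, and Bub1, a kinase of the spindle checkpoint. Bub1 read 7.23, 7.73 and 7.73 in culture and 3.20 on each of the 3 cortex arrays, a difference of 4.36 ± 0.18 as deposited (adjusted p = 1.7e-11). Mki67, the proliferation marker recognised by the Ki-67 antibody, read 6.38, 6.40 and 6.07 in culture and 3.58, 3.77 and 3.07 in cortex. Its culture signal was only just above the reference, although its difference of 2.81 ± 0.20 passed the test (adjusted p = 5.5e-09). The replication helicase genes Mcm2, Mcm3, Mcm5 and Mcm6 were higher by 2.19 to 2.67 as deposited. Tyms, the thymidylate synthase, had the smallest difference of the list, at 1.18 ± 0.18 (adjusted p = 2e-05). Ckap2l, Ect2, Nuf2, Spc25 and Aspm, which also act in mitosis or cytokinesis but are not in the list as written, were among the 20 called genes with the largest rise.

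The promoters of genes transcribed in G2 and mitosis often carry a cell cycle homology region, TTTGAA, downstream of CCAAT boxes. The 250 bases before the transcription start are shown for the 4 dividing-cell members with the largest differences that held a TTTGAA on either strand, since these genes moved together. The sequences are from RefSeq (GRCm38.p6) and run 5′ to 3′ on the strand of the gene. Capitals mark TTTGAA and CCAAT on either strand (TTCAAA and ATTGG on the other), and no copies of these motifs overlapped in the stretches shown.
Top2a, chr11:99024190-99024439, minus strand: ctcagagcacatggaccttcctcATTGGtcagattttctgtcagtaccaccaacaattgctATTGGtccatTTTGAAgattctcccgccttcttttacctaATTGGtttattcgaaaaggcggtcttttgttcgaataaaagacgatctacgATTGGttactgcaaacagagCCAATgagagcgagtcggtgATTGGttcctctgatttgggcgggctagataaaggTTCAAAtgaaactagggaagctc
Cdk1, chr10:69352913-69353162, minus strand: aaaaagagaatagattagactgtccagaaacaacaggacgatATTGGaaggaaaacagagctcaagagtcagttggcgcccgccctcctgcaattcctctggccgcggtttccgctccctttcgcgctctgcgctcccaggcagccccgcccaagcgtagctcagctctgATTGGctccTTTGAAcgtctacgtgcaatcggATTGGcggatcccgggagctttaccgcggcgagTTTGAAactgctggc
Kif11, chr19:37376132-37376381, plus strand: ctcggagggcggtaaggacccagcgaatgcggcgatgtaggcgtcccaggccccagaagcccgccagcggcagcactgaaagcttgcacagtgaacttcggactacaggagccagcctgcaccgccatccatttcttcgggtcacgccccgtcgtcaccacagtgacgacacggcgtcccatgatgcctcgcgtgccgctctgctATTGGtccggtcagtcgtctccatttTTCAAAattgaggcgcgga
Mki67, chr7:135716380-135716629, minus strand: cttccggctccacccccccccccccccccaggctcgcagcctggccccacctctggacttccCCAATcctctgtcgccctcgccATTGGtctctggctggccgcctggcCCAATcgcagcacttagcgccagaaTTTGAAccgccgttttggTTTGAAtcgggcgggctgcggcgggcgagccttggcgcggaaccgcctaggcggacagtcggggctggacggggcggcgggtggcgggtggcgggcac

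The TTTGAA nearest to the start began 23 bases before it in Top2a, 15 in Cdk1, 19 in Kif11 and 98 in Mki67. The nearest CCAAT box lay farther out in each, at 58, 48, 45 and 141 bases. Over windows of 250 bases before to 50 after the start, 10 of the 18 dividing-cell members with a window in the table held TTTGAA (55.6%), against 16.9% of the 11830 measured genes with a window and 17.9% of all 32851 windows. CCAAT was held by 15 of the 18 (83.3%), against 42.3% of measured genes and 37.4% of windows. These are matches of letters, and no binding was measured.

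Genes of young neurons were the next group to stand higher in culture. Of 12 immature-neuron genes measured, 9 were called higher and 0 lower (75% and 0%, against 7.44% and 2.92% of all genes). The median difference of the list was 2.25 as deposited and 1.68 after quantile normalization. Dpysl3 and Dpysl5, collapsin response mediator proteins that steer growth cones, differed most. Dpysl3 read 13.07, 12.95 and 12.45 in culture and 8.65, 8.65 and 8.72 in cortex, a 17.7-fold difference as deposited (4.15 ± 0.18, adjusted p = 2.1e-11) and 10.9-fold after quantile normalization. Dcx, the doublecortin that stabilises microtubules in migrating neurons, read 12.28, 12.24 and 11.58 in culture against 9.53, 9.57 and 9.57 in cortex. Culture array 3 was the lowest of the culture arrays for Dpysl3 and Dcx, and no culture array overlapped a cortex array. Most genes were separated in this way: after quantile normalization the groups overlapped for 3517 of all 14807 genes. Tubb2b, Crmp1, Sox11, Sox4, Igfbpl1 and Draxin were also higher, by 1.31 to 2.90 as deposited and by 1.11 to 2.20 after quantile normalization. The cell adhesion gene Ncam1 (1.51 and 0.77) and the basic helix-loop-helix genes Nhlh1 (-0.12 and 0.21) and Nhlh2 (0.59 and 0.82) were not called.

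Radial glia and progenitors, the cells that give rise to cortical neurons and later to glia, had 6 of 16 measured genes called higher and 0 lower. Their median difference was 1.31 as deposited and 0.81 after quantile normalization. The calls were 37.5% and 0% of the list, against 7.44% and 2.92% of all genes. Nes, the intermediate filament nestin, read 7.89, 8.16 and 8.75 in culture and 5.42, 5.42 and 5.33 in cortex, a difference of 2.87 ± 0.26 as deposited (adjusted p = 6.8e-08). The cortex readings were below the reference and the culture readings above it. Vim (2.62 ± 0.16), Fabp7 (2.40 ± 0.10), Sox2 (2.22 ± 0.13) and Eomes (1.43 ± 0.26), a marker of intermediate progenitors, were higher too, with adjusted p-values of 0.00011 or less as deposited. Tnc, a matrix glycoprotein of radial glia, was uneven across dishes, at 8.95, 7.54 and 10.18 against 6.53 to 6.68 in cortex, and was called at 2.29 ± 0.70 (adjusted p = 0.0076). Pax6 (0.98 and 0.94), Hes5 (1.19 and 0.52), Hes1 (0.66 and 0.49) and Notch1 (1.10 and 0.38) were not called. The Notch ligands Dll1 (1.97 ± 0.12) and Dll3 (1.64 ± 0.20) were higher in culture.

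**Figure D3:**
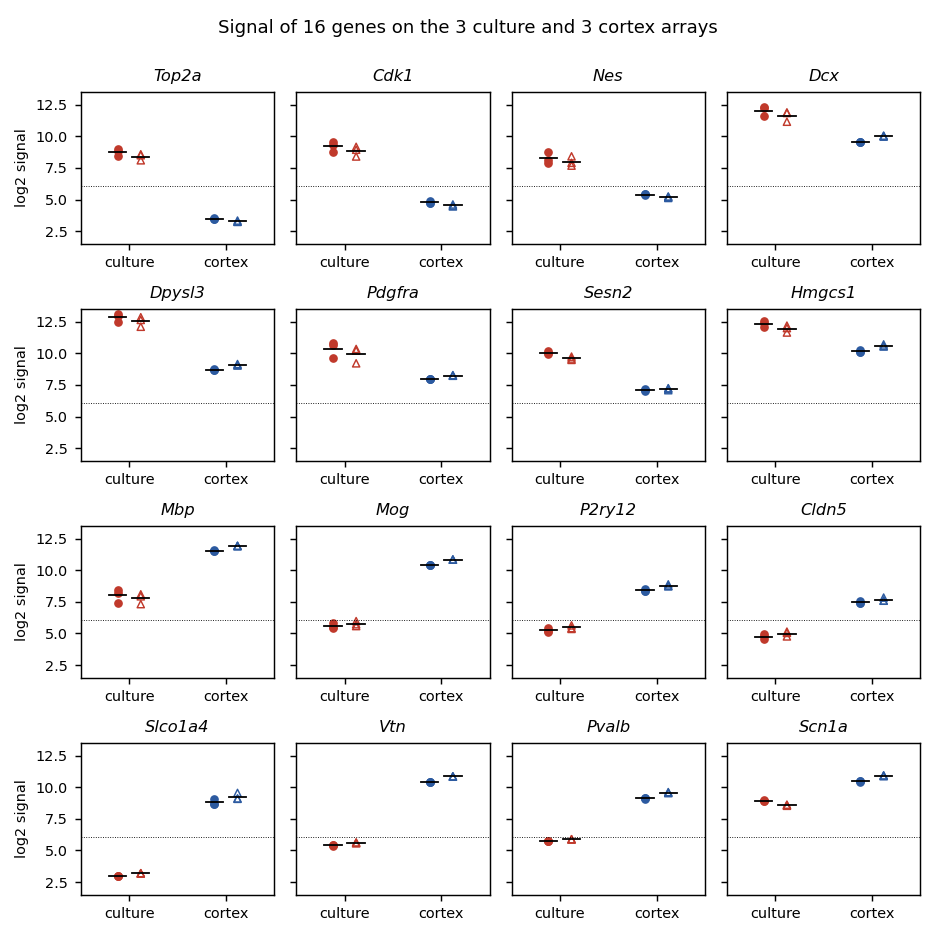
Log2 signal of 16 genes on the 3 culture arrays (red) and the 3 cortex arrays (blue), with filled circles for deposited values, open triangles for quantile-normalized values and bars for the mean of 3. The dotted line marks the highest olfactory reference, 6.03. For each of the 16 genes the 3 culture arrays lie wholly above or wholly below the 3 cortex arrays in both versions. This holds for most genes: after quantile normalization the groups overlapped for 3517 of all 14807.

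Oligodendrocytes, which wrap axons in myelin, showed the reverse. Of 22 measured marker genes, 16 were called lower in culture and 1 higher, against 2.92% of all genes called lower, and the median difference was -2.05 as deposited and -2.65 after quantile normalization. Mal, a proteolipid of compact myelin, read 4.77, 4.79 and 4.70 in culture and 10.02, 10.02 and 9.93 in cortex. The difference of -5.24 ± 0.06 as deposited (adjusted p = 6.1e-17) amounts to 37.7-fold, with the culture at background. Mog, a glycoprotein on the outer face of the sheath, read 5.54, 5.84 and 5.40 in culture and 10.39, 10.39 and 10.38 in cortex. Mbp, the myelin basic protein, was still above the reference in culture, at 8.19, 8.40 and 7.43 against 11.53, 11.56 and 11.50, and was 11.5-fold lower as deposited and 17.5-fold lower after quantile normalization. Ermn, Aspa, Opalin, Mobp, Mag, Trf and Fa2h were lower by 3.00 to 4.88 on the log2 scale as deposited. Cldn11, Ugt8a, Ppp1r14a, Bcas1, Tspan2 and Enpp6 were lower by 1.05 to 2.38. In culture 16 of the 22 had a mean above the reference, and in cortex all 22 did. For all 14807 genes these counts were 10680 and 10306, so the culture count of the list was close to the share of all genes.

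The gene of the list that was higher in culture was Olig2, a transcription factor of the whole lineage, at 10.49, 10.49 and 10.08 against 7.84, 7.89 and 7.61. Its difference was 2.57 ± 0.20 as deposited (adjusted p = 1.6e-08) and 1.85 ± 0.21 after quantile normalization. Olig2 is also a marker of oligodendrocyte precursors. Of 15 measured precursor genes 5 were called higher and 1 lower (33.3% and 6.67%, against 7.44% and 2.92% of all genes). Pdgfra, the receptor through which platelet-derived growth factor keeps precursors dividing, read 10.67, 10.79 and 9.61 in culture and 7.93 to 7.95 in cortex. Olig1 was higher by 2.55 ± 0.22 and Cacng4 by 2.49 ± 0.21. Vcan was higher by 1.63 ± 0.26, but its call was lost without culture array 1 or without culture array 2, at 1.49 and 1.48. Neu4, a sialidase, was lower (-1.48 ± 0.09, adjusted p = 5.2e-10). Cspg4 (1.21 and 0.82), which encodes NG2, Sox10 (0.63 and -0.09), Gpr17 (-0.28 and -0.78) and Bmp4 (-0.50 and -0.62) were not called. Cnp (-0.96 and -1.85) and Gpr37 (-0.66 and -1.39), of the oligodendrocyte list, were past 2-fold after quantile normalization only.

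Microglia, the resident macrophages of the brain that enter from the yolk sac, had 21 of 26 measured markers lower in culture and 0 higher. These are 80.8% and 0% of the list, against 2.92% and 7.44% of all genes. The median difference of the list was -2.20 as deposited and -2.47 after quantile normalization. P2ry13, a purinergic receptor, read from 3.99 to 4.06 on the 3 culture arrays and 8.71, 8.73 and 8.68 in cortex, which is 25.8-fold lower as deposited (adjusted p = 1.9e-16). Csf1r, the receptor for the growth factor that microglia need to survive, read 5.26, 5.33 and 5.36 against 8.96, 8.96 and 8.91. P2ry12 and Tmem119, which are characteristic of microglia, and the fractalkine receptor Cx3cr1, which other macrophages also carry, were lower by 3.13 ± 0.10, 2.52 ± 0.11 and 2.00 ± 0.11. No culture array overlapped a cortex array for these 5 genes, as for most genes (the groups overlapped for 3517 of 14807 after quantile normalization). In culture 10 of the 26 markers had a mean above the reference, against 23 in cortex. For all 14807 genes these counts were 10680 and 10306.

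Some microglial readings differed between dishes. C1qb, a chain of complement C1q, read 5.53, 5.42 and 6.95 in culture and 9.43, 9.56 and 9.46 in cortex. Tyrobp, the signalling adaptor of Trem2, read 4.60, 4.42 and 5.54 in culture and 7.87, 7.86 and 8.13 in cortex. Culture array 3 was the highest of the culture arrays for both, as it was for Laptm5, Cd53 and Cd180. Aif1 (-0.55 and -0.17), Cd68 (-0.25 and -0.79), Ptprc (-1.43 and -0.93), Irf8 (-0.42 and -0.28) and Sall1 (0.54 and 0.31) were not called. Cortex means of Aif1 and Ptprc were themselves below the reference, at 5.71 and 4.89 as deposited. Il34, a ligand of Csf1r made by neurons, was lower in culture by 1.22 ± 0.11 as deposited (adjusted p = 1e-07).

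Markers of blood vessels were also lower in culture. Of 23 endothelial genes 15 were lower and 0 higher (65.2% and 0%, against 2.92% and 7.44% of all genes). The median difference of the list was -1.69 as deposited and -1.74 after quantile normalization. All 23 were above the reference in cortex and 11 of them in culture. For all 14807 genes these counts were 10306 and 10680. The largest fall of all 14807 genes was in Slco1a4, an organic anion transporter of the blood-brain barrier, which read 2.98 on each of the 3 culture arrays and 8.69, 8.70 and 9.10 on the cortex arrays. This is 57.8-fold as deposited (-5.85 ± 0.09, adjusted p = 5.7e-16) and 66.4-fold after quantile normalization. Cldn5, the claudin of endothelial tight junctions, read 4.80, 4.94 and 4.54 against 7.43, 7.41 and 7.60. Emcn, Tek, Cdh5, Flt1 and Abcb1a were lower by 2.86 to 4.32 as deposited. Mfsd2a (1.68 and 0.81), Slco1c1 (1.02 and 0.14) and Slc2a1 (0.20 and -0.69), transporters of the blood-brain barrier, were not called. Among vessel wall cells, 7 of 17 pericyte and smooth muscle genes were lower and 0 higher (41.2% and 0%). Vtn, the vitronectin made by brain pericytes, read 5.43, 5.44 and 5.37 in culture and 10.41, 10.39 and 10.39 in cortex. Acta2 (-3.44 ± 0.05), Atp13a5 (-3.27 ± 0.04), Rgs5 (-2.84 ± 0.15) and Pdgfrb (-1.21 ± 0.08) were lower too. Myh11 (-0.52 and -0.26), Tagln (-0.62 and -0.34) and Notch3 (1.16 and 0.73) were not called.

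Meningeal and perivascular fibroblast genes had 8 of 24 members lower and 1 higher (33.3% and 4.17%, against 2.92% and 7.44% of all genes). The higher one was Pdgfra, which also belongs to oligodendrocyte precursors. Ptgds, the prostaglandin D synthase of meninges and oligodendrocytes, read 6.92, 7.17 and 7.95 in culture and 11.88, 11.95 and 11.99 in cortex. Ogn (-4.06 ± 0.14), Igf2 (-2.61 ± 0.14) and Aldh1a2 (-2.44 ± 0.11) were lower, and the collagens Col1a1 (-0.40 and -0.66), Col1a2 (-0.85 and -1.02) and Col3a1 (-0.24 and -0.01) were not called. Apod, a lipocalin of oligodendrocytes and fibroblasts, was 54.9-fold lower as deposited, at 5.79, 6.01 and 6.29 against 11.66, 11.68 and 12.10. Of 12 choroid plexus and ependyma genes 2 were higher and 1 lower (16.7% and 8.33%, against 7.44% and 2.92% of all genes). Foxj1 (1.71 ± 0.22), a transcription factor of cells with motile cilia, and the cilium gene Enkur (1.50 ± 0.20) were higher. The means of Enkur were under the reference in both systems, at 5.54 in culture and 4.04 in cortex as deposited. In this list 2 genes were above the reference in culture and 3 in cortex. Ttr, the thyroxine carrier of the choroid plexus, was the lower one and read 5.14, 5.14 and 5.16 in culture and 7.83, 10.40 and 7.10 in the 3 cortex pools. The second cortex pool stood above the other cortex pools. Of 18 genes of blood leukocytes and border macrophages 4 were lower (22.2%, against 2.92% of all genes) and 0 higher. The lower ones were Mrc1, Pf4, F13a1 and H2-Aa, by 1.59 to 1.82 as deposited. The means of all 4 were under the reference in both systems, with cortex at 5.75, 5.41, 5.35 and 5.11 as deposited. The list median was -0.27 as deposited and 0.10 after quantile normalization, where 11 of the 18 were above 0. The border macrophage genes Lyve1 (0.43 and 0.77) and Cd163 (-0.29 and 0.15) were not called. In cortex 1 of the 18 genes was above the reference, against 10306 of all 14807 genes.

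**Figure D4:**
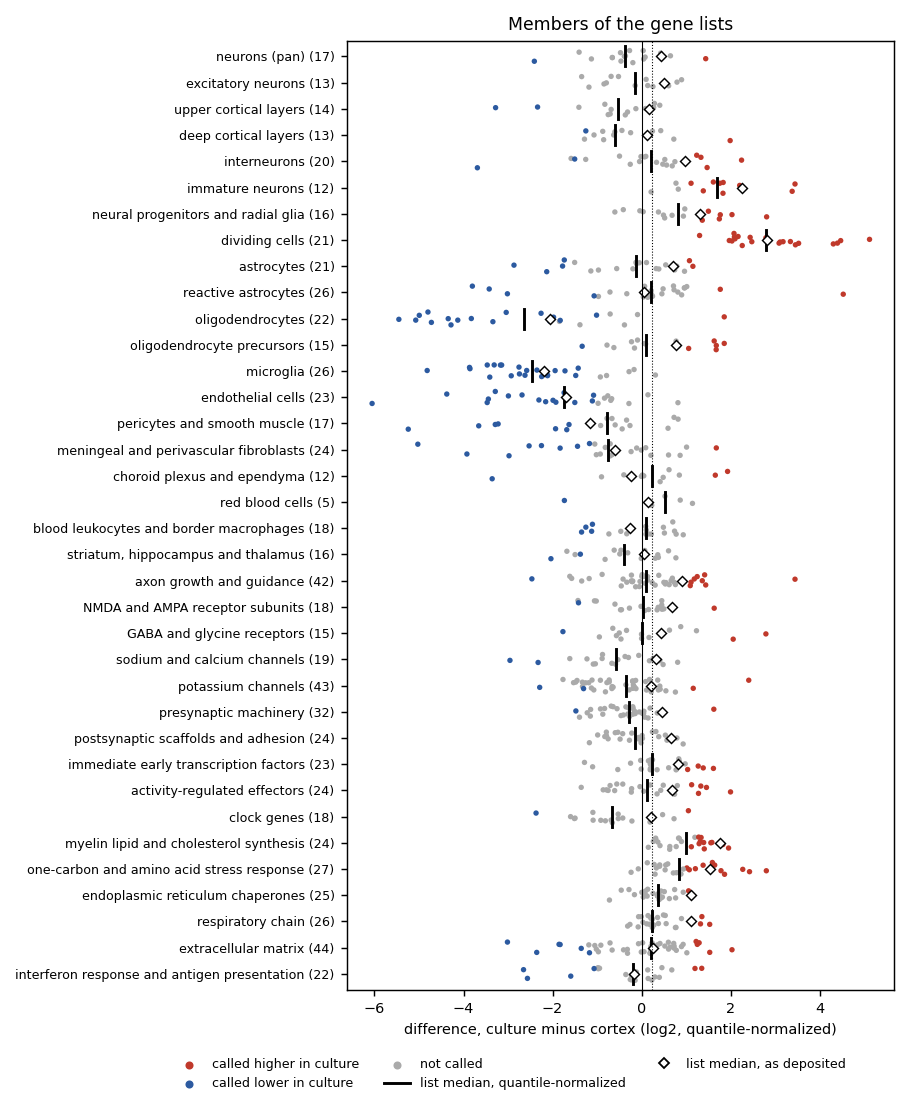
Difference of culture minus cortex on the log2 scale after quantile normalization for each measured member of 36 gene lists, with the number of members in brackets. Points are genes, coloured by call, bars are list medians after quantile normalization, diamonds are list medians as deposited, and the dotted line is the median of all genes (0.23). Dividing-cell and immature-neuron lists lie to the right, oligodendrocyte, microglial and endothelial lists to the left, and synaptic and receptor lists near 0.

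General neuronal genes were mostly not called, like most genes. Of 17 measured pan-neuronal genes 1 was higher (5.88%, against 7.44% of all genes) and 1 lower (5.88%, against 2.92%), with a median difference of 0.44 as deposited and -0.36 after quantile normalization, so the sign of the median depended on the scaling. Rbfox3, the NeuN antigen, differed by 0.44 and -0.39, Snap25 by 0.04 and -0.27, Syt1 by 0.03 and -0.46 and Map2 by 0.68 and 0.03. Gap43, a growth cone protein, was higher, at 12.39, 12.47 and 12.05 against 9.92, 10.05 and 10.13 (2.27 ± 0.13, adjusted p = 4.8e-10). Snhg11, a non-coding transcript of neurons, was lower (-1.56 ± 0.17, adjusted p = 5.2e-07). None of the 13 excitatory neuron genes was called, and all 13 were above the reference in both systems. Among all 14807 genes 10680 were above it in culture and 10306 in cortex. The vesicular glutamate transporters Slc17a7 and Slc17a6 differed by -0.14 and 0.97 as deposited and by -0.85 and 0.25 after quantile normalization.

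Layer genes were called in both directions. Among 14 upper-layer genes Lamp5 and Kcnh5 were lower (14.3%, against 2.92% of all genes) and 0 were higher. Lamp5 was uneven across dishes, at 7.30, 7.81 and 9.68 against 10.94, 10.95 and 10.72. Of 13 deep-layer genes 1 was higher and 1 lower (7.69% each, against 7.44% and 2.92% of all genes). Ntsr1, a neurotensin receptor of layer 6 neurons, was higher at 10.35, 9.76 and 10.02 against 7.35, 7.64 and 7.32 (2.61 ± 0.20, adjusted p = 8e-09). Its fellow deep-layer gene Sulf1 was lower by 1.17 ± 0.24, a call that was lost without culture array 3 (-0.82). The deep-layer transcription factors Bcl11b (1.05 and 0.43), Fezf2 (0.24 and -0.63), Foxp2 (-0.52 and -1.07) and Tle4 (0.27 and -0.60) were not called.

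Genes of inhibitory neurons were called in both directions. Pvalb, the calcium buffer of fast-spiking interneurons that appears late in development, read 5.73 on each culture array and 9.13, 9.09 and 9.16 on the cortex arrays. It was 10.6-fold lower as deposited and 12.9-fold lower after quantile normalization (adjusted p = 2.1e-12 and 2.3e-13). The GABA synthesis genes Gad1 (0.85 and -0.02) and Gad2 (1.0 and 0.09) and the peptides Sst (0.55 and -0.26) and Npy (-0.69 and -1.58) were not called. Dlx1 (2.01 ± 0.12), Dlx2 (1.76 ± 0.09), Sp8 (2.18 ± 0.22) and Sox6 (2.06 ± 0.13), transcription factors active while interneurons are born and migrate, were higher. Crh was lower, at 4.67, 5.51 and 5.74 against 6.94, 7.01 and 6.95. In all, 4 of 20 interneuron genes were higher (20%, against 7.44% of all genes) and 2 lower (10%, against 2.92%).

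Of 19 sodium and calcium channel genes 2 were lower (10.5%, against 2.92% of all genes) and 0 higher. Scn1a, the sodium channel alpha subunit that dominates in fast-spiking interneurons, read 8.89, 9.00 and 8.94 in culture and 10.41, 10.49 and 10.45 in cortex (-1.51 ± 0.14, adjusted p = 1.3e-07). Scn4b, a sodium channel beta subunit, was lower by 2.82 ± 0.15. Of 43 potassium channel genes 2 were called in each direction (4.65% each, against 7.44% of all genes called higher and 2.92% lower). Kcnab3 (-1.78 ± 0.12) and Kcnj2 (-1.06 ± 0.37) were lower, and Kcnk10 (2.83 ± 0.15) and Kcnip1 (2.00 ± 0.09) were higher. The call of Kcnj2 was lost without culture array 1 or without culture array 2, at -0.86 and -0.93. The median of the potassium channel list was 0.22 as deposited and -0.35 after quantile normalization.

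Among transmitter receptors a few subunits were called. Of 15 GABA and glycine receptor genes 2 were higher and 1 lower (13.3% and 6.67%, against 7.44% and 2.92% of all genes). Glra2, the glycine receptor subunit of fetal neurons, read 11.53, 11.73 and 11.10 in culture and 8.59, 8.53 and 8.55 in cortex (2.89 ± 0.21, adjusted p = 5.1e-09). Gabrq, the theta subunit of the GABA-A receptor, was 6.32-fold higher as deposited, from cortex readings of 4.77 to 4.78. Gabrd, the delta subunit of extrasynaptic receptors, was lower at 7.46, 7.58 and 7.51 against 8.84, 8.76 and 8.62 (-1.22 ± 0.09, adjusted p = 3.6e-09). Of 18 NMDA, AMPA and related subunits 1 was lower and 1 higher (5.56% each). Grin2c was lower (-1.25 ± 0.16) and Cacng4, an AMPA receptor auxiliary subunit, was higher (2.49 ± 0.21). Grin2a differed by -0.54 and -1.43, Grin2b by 0.52 and -0.27 and Gria1 by 0.98 and 0.16, and none of them was called. The chloride transporters Slc12a5 (0.19 and -0.70) and Slc12a2 (-0.31 and -1.04), whose balance sets the sign of GABA currents, were not called either.

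Of 32 presynaptic genes 1 was higher and 1 lower (3.12% each, against 7.44% and 2.92% of all genes), and of 24 postsynaptic scaffold and adhesion genes 0 were called. Syt2, a fast calcium sensor for release, was lower (-1.25 ± 0.11, adjusted p = 8.4e-08), and Doc2b, a sensor for spontaneous release, was higher (2.17 ± 0.12, adjusted p = 2.7e-10). Syp (0.46 and -0.20), Syn1 (0.54 and -0.16), Dlg4 (0.65 and 0.02) and Shank3 (0.79 and -0.07) were not called. All members of both lists were above the reference in culture and in cortex, as were 10680 and 10306 of all 14807 genes.

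Of 21 astrocyte genes measured, 2 were higher (9.52%, against 7.44% of all genes) and 4 lower (19%, against 2.92%), with a median difference of 0.70 as deposited and -0.12 after quantile normalization. Sox9, a transcription factor of the early glial lineage, was higher (1.91 ± 0.08, adjusted p = 1.5e-11), as was Fgfbp3. Gjb6, the connexin 30 that appears as astrocytes mature, read 6.46, 6.34 and 6.15 in culture and 8.70, 8.57 and 9.28 in cortex (-2.53 ± 0.15, adjusted p = 6e-10). S100b, Ntsr2 and Itih3 were lower by 1.25 to 1.82 as deposited. Gfap, the intermediate filament of astrocytes, was uneven across dishes, at 7.79, 6.31 and 9.41 against 8.27, 8.38 and 8.18. The culture arrays lay on both sides of the cortex arrays, and Gfap was not called (-0.44 ± 0.86, adjusted p = 0.65). Aldh1l1 (1.83 and 0.96), Aqp4 (1.29 and 0.39) and Aldoc (0.06 and -0.56) were not called either. In the reactive astrocyte list B3gnt5, a glycosyltransferase, was 26.2-fold higher as deposited, from 4.80 on each cortex array to 9.68, 9.70 and 9.17 in culture. The classic reactive genes Lcn2 (0.09 and 0.48), Serpina3n (0.07 and -0.71) and Cxcl10 (-0.01 and 0.23) were not called. Serping1, Srgn, Tm4sf1 and Gbp2, which vessels and microglia also express, were lower. The means of Gbp2 were under the reference in both systems, at 3.76 in culture and 5.31 in cortex as deposited.

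Genes of matrix and guidance were called in both directions. Of 12 genes of the perineuronal net and its lecticans 5 were higher and 1 lower (41.7% and 8.33%, against 7.44% and 2.92% of all genes). Ncan, the neurocan of developing brain, was higher (1.90 ± 0.11, adjusted p = 2.9e-10), and Hapln4, a link protein of mature nets, was lower at 6.65, 7.06 and 6.62 against 9.36, 9.37 and 9.07 (-2.49 ± 0.17). Has3 and Chst3 were higher, and Acan was called at 1.04 ± 0.39 but lost the call without culture array 2 (0.73) or without cortex array 1 (1.02). Of 42 axon growth and guidance genes 8 were higher (19%) and 1 lower (2.38%). The ligand Ntn1 (1.52 ± 0.16), the semaphorin Sema6a (2.08 ± 0.09), the plexin Plxnc1 (1.99 ± 0.19) and the ephrin Efnb3 (2.28 ± 0.14) were among them, and the adhesion molecule Cntn4 was lower (-1.87 ± 0.27). In the wider matrix list of 44 genes, 5 were higher (11.4%) and 6 lower (13.6%). Its median difference was 0.25 as deposited and 0.20 after quantile normalization, next to 0.50 and 0.23 for all genes. Bgn (-2.77 ± 0.20), Lama4 (-2.38 ± 0.07) and Col12a1 (-2.05 ± 0.07) were lower, and Mmp14 (1.97 ± 0.22) and Lamb1 (1.30 ± 0.12) were higher.

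Much of the cholesterol pathway was higher in culture. Of 24 measured genes of sterol and fatty acid synthesis 11 were called higher and 0 lower (45.8% and 0%, against 7.44% and 2.92% of all genes). All 24 had a positive difference in both versions, with medians of 1.75 and 1.0. Most genes were positive too: 10898 of all 14807 as deposited and 9884 after quantile normalization, with medians of 0.50 and 0.23. Sqle, the squalene epoxidase that commits squalene to sterols, read 11.23, 11.68 and 11.02 in culture and 8.55, 8.56 and 8.83 in cortex (2.67 ± 0.19, adjusted p = 3.9e-09). Hmgcs1, which makes the precursor of mevalonate, read 12.35, 12.52 and 12.05 against 10.13, 10.25 and 10.07. Mvk, Pmvk, Mvd, Lss, Cyp51, Nsdhl and Dhcr7 act at some of the steps from mevalonate to cholesterol. Each was higher by 2.07 to 2.22 as deposited and by 1.28 to 1.95 after quantile normalization. In the whole list 13 genes were not called. Culture array 2 gave the highest reading of the culture arrays for each of these 9 enzymes. Srebf1 (1.87 ± 0.12) and the sterol carrier Stard4 (1.98 ± 0.24) were higher. Insig1 (1.27 and 0.36) and Srebf2 (0.86 and 0.15) were not called. A sterol regulatory element, TCACNCCAC on either strand, was found in the promoter window of 1 of 18 members with a window (5.56%), against 1.45% of measured genes.

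Cells short of amino acids induce a set of genes through the transcription factor Atf4, and part of this set was higher in culture. Of 27 measured genes of this response and of folate-dependent metabolism 11 were higher and 0 lower, with medians of 1.54 and 0.84. The calls were 40.7% and 0% of the list, against 7.44% and 2.92% of all genes. Sesn2, a leucine sensor that restrains mTORC1, read 10.19, 10.03 and 9.90 in culture and 7.13, 7.15 and 7.01 in cortex (2.94 ± 0.09, adjusted p = 5.8e-13). Aldh1l2 (3.04 ± 0.11), Mthfd2 (2.65 ± 0.10) and Shmt2 (2.11 ± 0.09), enzymes of mitochondrial folate metabolism, were higher. So were the amino acid transporters Slc7a5 (2.56 ± 0.06), Slc7a3 (2.26 ± 0.28) and Slc7a1 (2.08 ± 0.12), and the factor Atf5 (2.12 ± 0.13). Atf4 (1.97 ± 0.09) and Chac1 (1.84 ± 0.13) sat just past 2-fold after quantile normalization, at 1.07 and 1.01, and lost the call without culture array 2 or without cortex array 3. Asns (1.28 and 0.41), Trib3 (0.70 and 0.78), Ddit3 (1.33 and 0.93) and Psat1 (0.71 and -0.08) were not called. The Atf4 response element TGATGNAA lay in the window of 9 of 21 members (42.9%) against 3.55% of measured genes, but of the called members with a window 1 of 8 held it (12.5%).

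Few chaperone, glycolysis and hypoxia genes were called, next to shares of 7.44% higher and 2.92% lower for all genes. Antioxidant genes had 3 of 18 higher (16.7%). Of 25 endoplasmic reticulum chaperone genes 1, Selenos, was higher (4%), and Hspa5 differed by 1.27 and 0.38. Of 14 cytosolic chaperones 1, Cryab, was lower (7.14%), at 8.86, 8.24 and 10.15 against 10.92, 10.96 and 10.77. Of 29 glycolysis and hypoxia genes 1 was higher (3.45%), namely Ddit4, an mTORC1 inhibitor, at 10.35, 10.42 and 10.27 against 7.46, 7.68 and 7.37 (2.84 ± 0.12, adjusted p = 1.8e-11). Outside these lists, Cdkn1a, the p21 inhibitor of cyclin-dependent kinases, was 8.92-fold higher as deposited, at 10.93, 11.15 and 11.18 against 7.88, 7.89 and 8.01 (adjusted p = 1.5e-12). Eda2r, a receptor for ectodysplasin A2 and also outside these lists, read 8.05, 7.84 and 8.51 against at most 4.06 in cortex. It was 17.3-fold higher in both versions. Of 26 respiratory chain genes 3 were higher (11.5%), and the list median of 1.11 as deposited was 0.24 after quantile normalization, next to 0.50 and 0.23 for all genes.

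Activity-dependent genes were compared at rest, since both groups are controls of an experiment on neuronal activity. Of 23 immediate early transcription factors 4 were higher (17.4%) and 0 lower, and of 24 effector genes 5 were higher (20.8%) and 0 lower, against 7.44% and 2.92% of all genes. Fos (0.83 and 0.85), Egr1 (0.47 and -0.25), Npas4 (0.81 and -0.02) and Arc (-0.02 and -0.79) were not called. Nr4a3, an orphan nuclear receptor, read 10.64, 9.94 and 10.36 in culture and 8.25, 8.28 and 8.19 in cortex (2.08 ± 0.24, adjusted p = 9.6e-07). Egr2 was called at 8.09, 7.80 and 9.54 against 6.77, 6.65 and 6.50, with culture array 3 above the other dishes. Fosl2 (1.76 ± 0.25) lost the call without culture array 1 (1.53), culture array 2 (1.67) or cortex array 3 (1.70). Dusp4, a phosphatase of MAP kinases, was the effector with the largest difference (2.38 ± 0.16, adjusted p = 3.2e-09). Among 18 clock genes Hlf, a clock output factor that rises late in brain development, was lower at 9.33, 9.24 and 9.60 against 10.96, 10.94 and 10.84, and Nfil3 was higher (1.13 ± 0.31). The call of Nfil3 was lost without culture array 1 (1.05) or culture array 2 (0.99). Dbp (-0.76 and -1.60), Arntl (-0.15 and -0.81) and Per3 (-0.55 and -1.10) were not called.

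The cortex was from males, and the sex of the cultured cells is not in the labels. Eif2s3y, a translation factor on the Y chromosome, read 8.06, 8.56 and 7.54 in culture and 9.04, 9.04 and 9.22 in cortex. It was lower by 1.05 ± 0.25 as deposited (adjusted p = 0.0014), a call lost without culture array 3 (-0.79) or cortex array 3 (-0.99). Kdm5d, the other broadly expressed Y-linked gene of the list, differed by -0.95 and -1.34 and was not called. The X-linked partner Eif2s3x differed by 1.88 and 0.98. The share of male cells and the expression per cell cannot be told apart here.

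The same contrast was taken in the recovered groups, whose 6 arrays enter no group mean of the untreated comparison but share its model, its estimate of the spread and its quantile normalization. Recovered cultures were sampled 24 h after an excitatory cocktail, and recovered cortex came from mice after 6 h of sleep deprivation and a recovery given as 18 h in the source labels and 24 h in the protocol. Both comparisons draw dishes from the same 3 cultures, so the cultures are not independent. In the recovered groups 1188 genes were higher in culture (8.02%) and 452 lower (3.05%). Of the genes higher in the untreated comparison 964 were also higher in the recovered one, which is 87.6% of the former and 81.1% of the latter. For lower genes the overlap was 390, or 90.3% and 86.3%, and 0 genes were called in opposite directions. The dividing-cell list had all 21 members higher again, the oligodendrocyte list 16 lower, the microglial list 21 lower and the endothelial list 16 lower. Other lists gave different counts. Neuropeptide genes were called 2 higher and 2 lower untreated and 7 and 0 recovered, with Penk at -1.21 and 0.42 and Crh at -1.66 and -0.49. Reactive astrocyte genes were called 2 higher and 4 lower untreated and 7 and 3 recovered, and pericyte and smooth muscle genes 0 and 7 untreated and 3 and 7 recovered. None of these genes passed the test of the difference between the comparisons, described next. Top2a differed by 5.51 in the recovered groups, next to 5.25 untreated, and Mal by -5.18, next to -5.24.

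**Figure D5:**
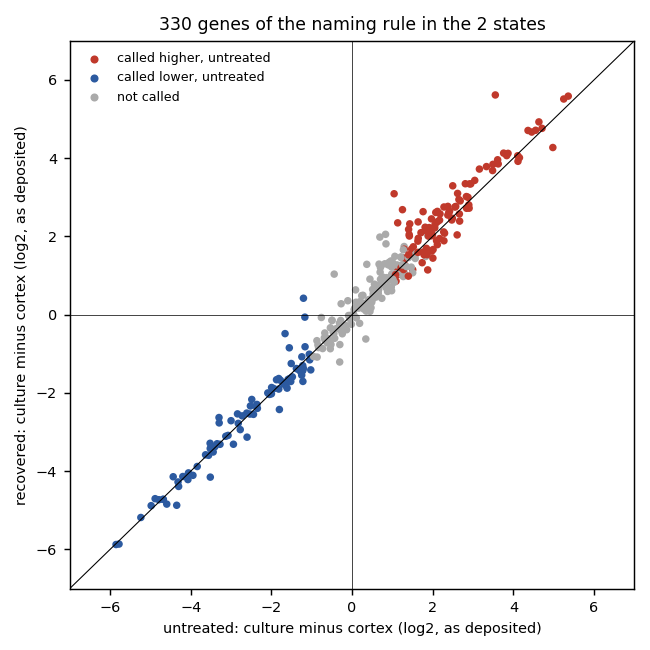
Deposited log2 difference of culture minus cortex in the untreated groups (horizontal) and in the recovered groups (vertical) for the 330 genes that the naming rule covers, coloured by the call in the untreated comparison, with the line of equality. Most genes lie along the line, and Dgkk lies above it, at 3.55 and 5.61.

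A test of the difference between these comparisons, as an interaction term in the same model, called 0 of 14807 genes at an adjusted p under 0.05 (0%), in the deposited values and after quantile normalization, with 871 genes at an unadjusted p under 0.05 in the deposited values. That fit did not pair the dishes. Dishes with the same number deviated together, and with the replicate number as a block within each system 8 genes passed in the deposited values. The count of 0 therefore holds for the unpaired fit only. The smallest adjusted p was that of Stxbp6, which regulates vesicle fusion, at -0.75 ± 0.08 (adjusted p = 0.015). Gpc3, a glypican, was higher in culture by 2.30 untreated and by 1.20 recovered (interaction -1.10 ± 0.13, adjusted p = 0.019), and Calb1, calbindin, differed by 0.99 and 0.07 (interaction -0.91 ± 0.13, adjusted p = 0.039). Dgkk, a diacylglycerol kinase, had the largest shift of all genes, from 3.55 to 5.61, and did not pass (adjusted p = 0.1 without the block).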

How the data were processed

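The table holds log2 values that the authors deposited, made with RMA per the submitters' processing notes (version and joint or separate normalization of the systems: not given in the sources used here). Of 23238 probe sets, 14939 had 1 gene symbol in the platform annotation, 989 several and 7310 none; 14884 matched a RefSeq table (GRCm38.p6) by Entrez ID, and 0 symbols changed. For 131 genes with several probe sets, the one with the highest mean over 18 arrays was kept, giving 14807 genes, with no filter on low signal.

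A model of 6 groups over 18 arrays was fitted with lmFit and eBayes (limma 3.58.1 under R 4.3.3, tests two-sided, Benjamini-Hochberg adjustment) on the deposited values and after quantile normalization, and tested on simulated data. A call needs adjusted p under 0.05 and 2-fold in the same direction in both. The simulated data changed few genes and widened the culture arrays linearly about their median. They therefore do not show how the rule behaves where most genes differ, as here. The array number limits the precision. The 53 gene lists (20 of cell types, 33 of pathways, 991 measured genes) were written from general knowledge. The comparison and lists were chosen with earlier results of these data known.

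Named are the 20 largest called rises and 20 largest falls by the smaller difference, each list's first 4 genes, its 4 largest called members each way, other members that account for a list, and sex chromosome genes. Promoter windows (250 bases before to 50 after the start) came from RefSeq; 11830 genes matched.

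Labels number the replicates. Deviations of same-numbered culture and cortex arrays correlated at 0.11, -0.04 and 0.13, which does not pair the systems. Same-numbered cultures correlated at 0.12 to 0.25 over 9 pairs and other culture pairs at -0.19 to 0.09 over 18, and the labels name 3 cultures. The main fits held no term for this pairing of cultures, which entered only through the replicate block. Alternatives covered the scaling, thresholds, filter, probe set choice, array weights, replicate block and leaving out each array.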

Additional observations from a re-analysis of the deposited data

How the results depend on the processing

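The counts of 1101 genes higher and 432 lower stayed within 1.5 times under scaling to a common median and standard deviation (1647 and 456), quantile normalization of the 6 compared arrays, a fit of those 6 arrays, array weights, a trended robust eBayes, removal of the genes in the lowest 30% of mean signal, and averaging of probe sets. They were 1094 to 1145 and 420 to 438 when 1 array was left out, and of 195 named called genes 185 to 194 kept their call. Deposited values alone gave 3799 higher, and quantile normalization alone 745 lower. The threshold moved the counts by its construction: 2769 and 774 at 1.5-fold, 181 and 134 at 4-fold, 5805 and 1336 with no fold, and 483 and 264 when limma's treat tested against 2-fold. In the recovered groups deposited values alone gave 3689 higher and quantile normalization alone 814 lower. A replicate block gave 1102 and 433, and a block within each system 1103 and 431; the latter raised the interaction from 0 to 8 genes, and neither block changed another count by over 1.5 times, while Hapln1 passed the call rule with either (1.07). None of the 195 named called genes changed sign under these alternatives, but list medians near 0 did between the deposited and the quantile-normalized values, such as that of pan-neuronal genes (0.44 and -0.36). Where removal of the lowest 30% left a list without members, that alternative gave no value for it. Signal near the level of silent genes limits the folds of 386 called genes higher and 237 lower. The cause of each change with scaling was not tested.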

Other observations

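Smaller groups of genes add to the comparison. Of 15 retinoid genes measured, 3 were higher and 2 lower in culture (20% and 13.3%, against 7.44% and 2.92% of all genes). Aldh1a2 (-2.44 ± 0.11) and Aldh1a1 (-2.09 ± 0.23), which make retinoic acid, were lower as deposited, while another enzyme of that kind, Aldh1a3, was higher at 7.38, 6.78 and 9.20 against 6.09, 6.03 and 6.04. Crabp1, a binding protein for retinoic acid, was higher by 2.11 ± 0.25. Of 29 neuropeptide genes Nts and Rln1 were higher and Penk and Crh lower (6.9% each way, against 7.44% and 2.92% of all genes). The call of Penk was lost without culture array 1 (-0.97). Nts varied between dishes, at 5.43, 6.72 and 4.65 against 3.82, 3.78 and 3.77. The means of Nts were under the olfactory reference in both systems, at 5.60 in culture and 3.79 in cortex as deposited. Of 18 antioxidant genes 3 were higher (16.7%, against 7.44% of all genes). Among them was Hmox1, heme oxygenase, at 9.53, 8.66 and 9.59 against 6.67, 6.60 and 6.46.

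Interferon and cytokine genes were mostly uncalled. Of 22 genes of interferon response and antigen presentation 2 were higher and 4 lower (9.09% and 18.2%, against 7.44% and 2.92% of all genes). Ifit1 (-2.94 ± 0.46), Ifitm3 (-2.36 ± 0.40) and Ifih1 (-1.94 ± 0.05) were lower, and Bst2 and Tap1 were higher by 1.12 and 1.08. Of 27 cytokine, chemokine and complement genes 4 were lower (14.8%) and 0 higher. The median of these 27 was -0.07 as deposited and 0.19 after quantile normalization, where 18 of them were above 0. Igf2bp3, an RNA-binding protein of embryonic tissue, was higher at 7.28, 7.57 and 6.37 against 4.19, 4.16 and 4.13, whereas Lin28a (0.01 and 0.23) and Hmga2 (-0.04 and -0.35) were not called. Rgs13, a regulator of G protein signalling, had the largest difference of all genes in favour of culture, at 8.86, 9.65 and 9.05 against 3.79, 3.91 and 3.79 (5.36 ± 0.20). Its cortex readings lay under the olfactory reference of 6.03, so the size of this difference depends on the array's background.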
